A study of Mus musculus with 6 samples.

Results

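The genes described here are 10 that encode cytosolic sensors of foreign or misplaced nucleic acid, or proteins tied directly to them, in dendritic cells (DCs) sorted from mouse bone marrow. They were taken by symbol from the 24421 genes of the expression table: Ddx58, Ifih1, Dhx58, Mavs, Adar, Mb21d1, Tmem173, Ifi203, Ifi204 and Zbp1. All 10 had a row and all 10 passed the filter on low counts, among 13010 genes tested. The comparison sets 3 TCL samples, from C57BL/6 mice with adoptively transferred murine chronic lymphocytic leukaemia (CLL), against 3 wild-type (WT) samples from C57BL/6 mice. RNA was sequenced with a poly(A)-based protocol. The design asks how marrow DCs that share the marrow with this leukaemia differ from those that do not. The sources used here do not give the sort markers, the age or number of the mice, or the origin of the transferred leukaemia. Because nothing says that the 3 samples of a group came from separate mice, their spread, and with it each p-value, may be technical.

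Cells detect viral or displaced nucleic acid in the cytosol by 2 main routes. RNA is read by the RIG-I-like helicases RIG-I and MDA5, which signal through MAVS on mitochondria, and DNA by the enzyme cGAS, whose product cGAMP activates STING on the endoplasmic reticulum. Both routes lead to the kinases TBK1 and IKK-epsilon, to the transcription factors IRF3 and NF-kB and to type I interferon. Many of the sensors are themselves interferon-inducible, so their mRNA is known to rise when a cell has seen interferon. In DCs these routes are known for feeding antiviral and anti-tumour T cell responses.

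In TCL samples Zbp1 and Ifih1 were each about 2.1-fold as abundant as in WT samples, and no sensor gene fell. The remaining 8 genes had fold changes of 1.08 to 1.47 and did not pass the test. Of the 10 genes 2 rose and 0 fell at an adjusted p under 0.05 in edgeR's quasi-likelihood test, which is 20% of them. Across all 13010 tested genes 2.04% were called higher and 2.67% lower. The median log2 fold change of the 10 was 0.40, against 0.00 for all tested genes, and it ran from 0.12 for Dhx58 to 1.06 for Zbp1. All 10 values were above 0, as were 50% of all tested genes. In 6 genes every TCL library was above every WT library, in the sense that groups did not overlap, which was so in this direction in 14.1% of all tested genes. These 6 are Ddx58, Ifih1, Mb21d1, Tmem173, Zbp1 and Adar. DESeq2 called 3 members, Ddx58 with Ifih1 and Zbp1, at a background of 5.5% of all genes called higher. The same 3 pass in the authors' deposited table, where 3.9% of genes pass and are higher. With limma on the log scale the 2 were called, at a background of 2.01%. Leaving out WT library 7, WT library 9 or TCL library 4 left 0 members called, and leaving out TCL library 10 left 1, Zbp1. The background fell in those fits to 0.92%, 0.874%, 0.881% and 1.15% of tested genes called higher.

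**Figure D1:**
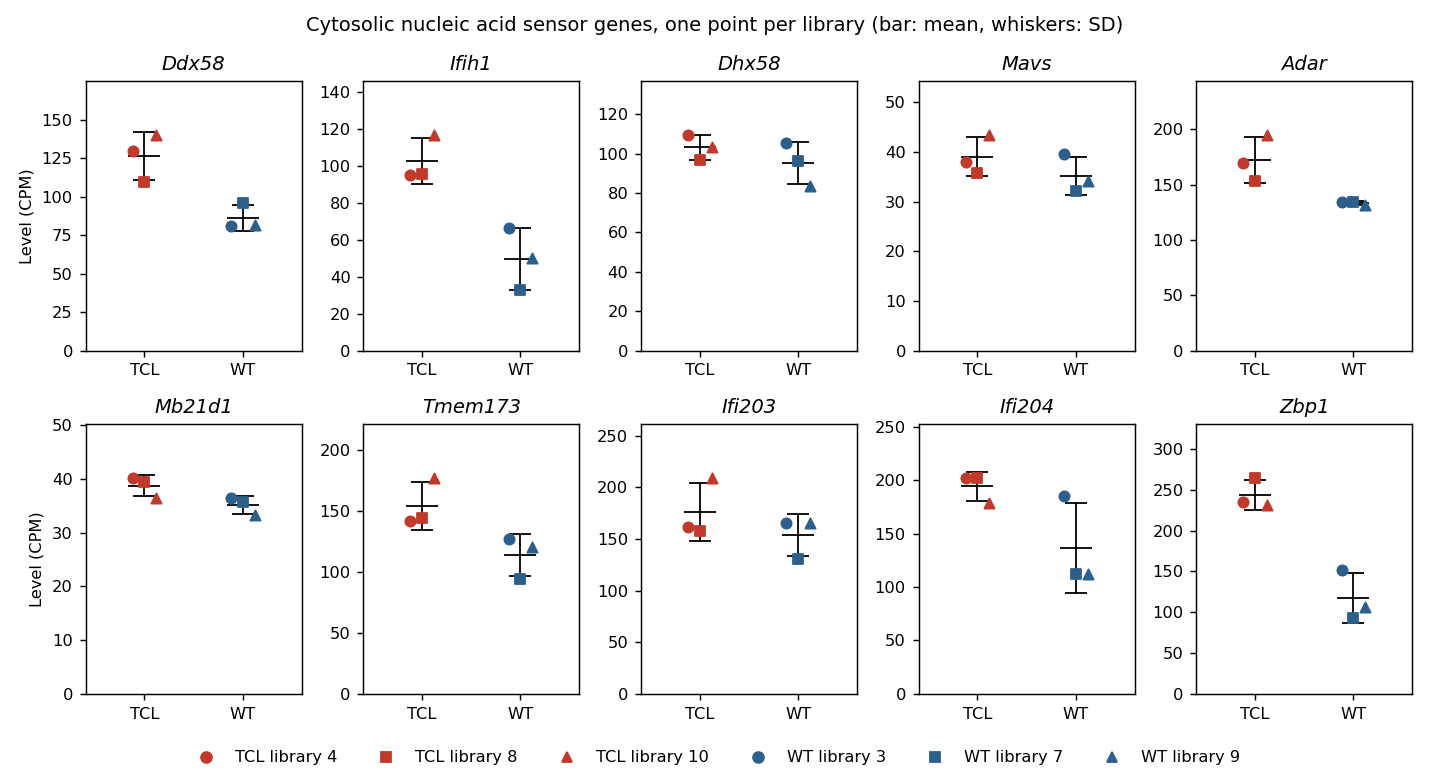
Level of each sensor gene in CPM (read counts scaled to each library's effective size) in 3 TCL libraries and 3 WT libraries, with the mean and SD of each group and a y axis that starts at 0 in every panel. The 3 TCL points lie clear of the 3 WT points for Ifih1, from 94.8 CPM upward against 66.3 CPM and below, and for Zbp1, from 231 CPM upward against 152 CPM and below.

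Recovered totals ran from 22868112 to 25674314 reads in TCL libraries and from 17158819 to 22888203 reads in WT libraries. Each sensor gene had between 4878 and 24801 reads over the 6 libraries, and the lowest single value was 524 reads, for Mavs in WT library 7. Fewer cells of a type and less RNA per cell cannot be told apart in these bulk samples. The DC integrin gene Itgax had 515 ± 140 CPM in TCL and 475 ± 79.7 CPM in WT samples (SD, n = 3 each), but Zbtb46, a transcription factor of conventional DCs, had only 9.49 ± 5.83 and 8.38 ± 4.96 CPM. Flt3, the receptor that DC precursors and DCs need, fell to 81.4 ± 29.2 CPM in TCL, against 186 ± 26.3 CPM in WT samples (adjusted p 0.0269). The plasmacytoid DC gene Siglech had 92.03 ± 38.4 CPM in TCL and 65.5 ± 11.98 CPM in WT samples. The neutrophil gene S100a9 stood at 6372 ± 2746 CPM in TCL and 12489 ± 4742 CPM in WT samples, and the B cell gene Cd79a fell to 42.9 ± 7.89 CPM in TCL, against 142 ± 66.8 CPM in WT samples (adjusted p 0.0214). Summed CPM of 12 conventional DC markers ran from 16507 to 37555 in TCL and from 47736 to 63100 in WT libraries, and 3 of the 12 fell. DESeq2 called 6 of the 12 lower and 0 higher. At an unadjusted p under 0.05 edgeR also had 6 lower and 0 higher, beside 11.2% and 11.1% of all tested genes. The MHC class II genes Cd74, H2-Aa and H2-Ab1, which B cells and macrophages also express, made up 92.3% to 97.3% of that sum in each library and were not among the 3 that fell. The sums of the remaining 9 overlapped, at 1278 to 1793 CPM in TCL and 1300.2 to 1742 CPM in WT libraries. The gap between the groups in the sum of all 12 thus lies with the MHC class II genes, although edgeR called none of them. Summed CPM of 10 macrophage markers ran from 3496 to 5168 in TCL and from 10162 to 11922 in WT libraries, with 5 lower and 1 higher. Summed CPM of 10 B cell markers ran from 210.3 to 298 in TCL and from 347 to 856 in WT libraries, with 6 lower. Of 10 plasmacytoid DC markers none passed in edgeR with the filter, and 2 passed, higher, in DESeq2 and in edgeR with no filter. At an unadjusted p under 0.05, 3 were higher and 1 lower, a level at which 11.1% of all tested genes were higher and 11.2% lower. Sums of the 10 markers overlapped, at 662 to 1010.5 CPM in TCL and 682 to 1068 CPM in WT libraries. Of 10 monocyte markers 1 rose and 1 fell, with sums of 4662 to 7469 CPM in TCL and 4717 to 5586 CPM in WT libraries. At an unadjusted p under 0.05, 4 of these 10 were higher and 1 lower, and DESeq2 called 2 higher and 1 lower. With a library left out, 0 to 4 were called higher and 0 to 1 lower. Summed CPM of 10 erythroid markers, 3 of them at 0 in every library, ran from 299.6 to 839.9 in TCL and from 143 to 205 in WT libraries, with 1 of 6 tested higher in edgeR, 4 of 6 in DESeq2, 5 of 6 at an unadjusted p under 0.05, 3 of 6 without TCL library 10 and 5 of 7 with no filter. Summed CPM overlapped for neutrophil markers (13398 to 30225 in TCL and 26854 to 56668 in WT libraries), with 0 of 9 called by edgeR, 4 lower at an unadjusted p under 0.05 and 1 lower with DESeq2. Sums also overlapped for T and NK cell markers, with 0 of 9 called by edgeR with the filter and all libraries. At an unadjusted p under 0.05, and with DESeq2, 1 of the 9 was higher and 1 lower. With no filter, or without TCL library 10, edgeR called 1 of them higher. For stromal and endothelial markers the sums overlapped as well, but 1 of 10 was higher and 5 lower. The median log2 fold change of these 10 was -3.63, and with a library left out 1 was higher and 4 to 6 were lower. With a library left out the number of fallen markers was 0 to 4 in the conventional DC list, 4 to 8 in the macrophage list and 2 to 7 in the B cell list. Which of these cells carried the sensor mRNA, and the part of their shares in the differences below, was not tested.

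Among the RIG-I-like receptors, Ifih1, which encodes MDA5, the sensor of long double-stranded RNA, had the largest difference. It had 94.8, 95.6 and 117 CPM in TCL libraries 4, 8 and 10, against 66.3, 32.6 and 50.2 CPM in WT libraries 3, 7 and 9. The 3 TCL libraries lay close together and above all 3 WT libraries, whose highest value was 2.04 times the lowest. The mean was 102 ± 12.4 CPM in TCL and 49.7 ± 16.9 CPM in WT samples (SD, n = 3 each), and the log2 fold change was 1.04 (SE 0.24, edgeR adjusted p 0.0410). WT library 7 was the lowest, and without it the log2 fold change was 0.81 and the adjusted p 0.0712. The adjusted p was also above 0.05 when WT library 9 (0.0929), TCL library 4 (0.0968) or TCL library 10 (0.104) was left out.

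Ddx58, which encodes RIG-I, the sensor of short RNA with a 5′ triphosphate, had 129.8, 109 and 139.97 CPM in the TCL libraries, against 80.7, 95.6 and 81.5 CPM in the WT libraries. The groups did not overlap, but the gap between TCL library 8 and WT library 7 was small. The log2 fold change was 0.56 (SE 0.15, edgeR adjusted p 0.0761), which misses the threshold. It passed with scaling to library size only (adjusted p 0.0432), with DESeq2 (0.0186) and without TCL library 8 (0.0407). In the authors' deposited table its adjusted p was 0.0282. Whether Ifih1 changed more than Ddx58 was not tested: WT library 7 was the lowest WT library for Ifih1 and the highest for Ddx58.

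Dhx58 encodes LGP2, a helicase of the same family that lacks the signalling domains of RIG-I and MDA5 and tunes them. It had 109, 96.9 and 103 CPM in the TCL libraries, against 105, 96.4 and 83.7 CPM in the WT libraries, so the groups overlapped. Its log2 fold change was 0.12, with a 95% interval from -0.21 to 0.44 (adjusted p 0.666), an upper bound of 1.36-fold.

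Mavs, the mitochondrial adaptor through which RIG-I and MDA5 signal, had 38.0, 35.7 and 43.4 CPM in the TCL libraries, against 39.5, 32.1 and 34.1 CPM in the WT libraries. These groups overlapped too, and the log2 fold change was 0.15, with a 95% interval from -0.21 to 0.51 (adjusted p 0.618). Ratios of 2 genes within a library do not depend on how libraries are scaled. Per kilobase their size rests on the annotated exon lengths, which were the same for both groups. The level of Ifih1 per kilobase was 1.02, 1.10 and 1.10 times that of Mavs in the TCL libraries, against 0.688, 0.415 and 0.603 times in the WT libraries. It was 0.347 to 0.452 times that of Dhx58 in the TCL libraries and 0.135 to 0.252 times in the WT libraries. Neither ratio overlapped between the groups, while that of Dhx58 to Mavs did, at 2.43 to 2.95 in TCL and 2.51 to 3.07 in WT libraries. The ratio of Ifih1 to Ddx58 overlapped as well, at 0.631 to 0.756 in TCL and 0.294 to 0.7095 in WT libraries. Of 9 such ratios computed, 5 did not overlap, and the pairs were chosen after the values were seen.

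Adar encodes ADAR1, which edits adenosine to inosine in double-stranded RNA and so keeps the cell's own RNA from activating MDA5. It had 169, 154 and 195 CPM in the TCL libraries, against 135, 134 and 131 CPM in the WT libraries. The WT libraries were almost equal, with a coefficient of variation of 1.33%, and every TCL library was higher. The log2 fold change was 0.37, with a 95% interval from 0.05 to 0.70, and the adjusted p was 0.176. Of its annotated exon bases 16.8% overlap Chrnb2 on the other strand, and the strand setting of the counting is not known here. Chrnb2 had 272 reads over all libraries, against 20561 for Adar.

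**Figure D2:**
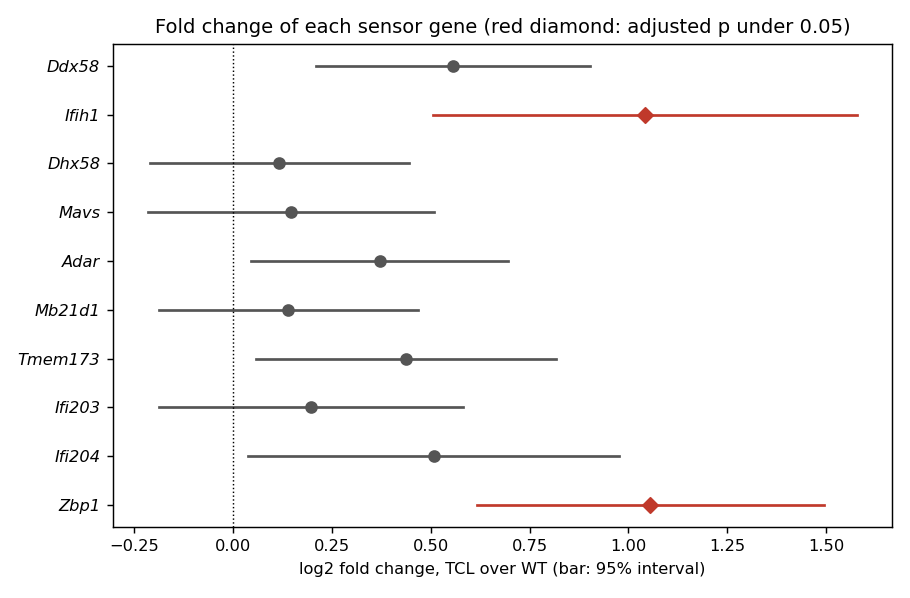
Log2 fold change of each sensor gene, TCL over WT, with its 95% interval from the quasi-likelihood fit over 3 TCL and 3 WT libraries. Ifih1 (1.04) and Zbp1 (1.06) are the 2 red diamonds, and the intervals of 4 genes, Dhx58, Mavs, Mb21d1 and Ifi203, include 0.

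Promoters are shown because several of these genes are induced by interferon through a motif that IRF proteins bind, the interferon-stimulated response element. RefSeq promoters of GRCm38.p6, from 250 bases before to 50 after a gene start, were used for 6 of the 10 members. These are Ddx58, Ifih1, Mavs, Mb21d1 (as Cgas), Ifi203 and Adar. The remaining members are not covered, whether or not a promoter could be matched, so the member counts below hold for these 6 only. The core of the element was searched as the letters GAAANNGAAA on both strands. Of the 9 promoters of these 6 genes 3 held a core match, 1 each of Ifih1, Ddx58 and Ifi203, against 3.44% of all 32851 promoters of the table. Counted by gene, that is 3 of 6, against 3.99% of 27025 genes. Below, the 3 promoters with a core match stand beside that of Mavs, which has none, with the matched letters in capitals and each sequence read 5′ to 3′ in the direction of the gene.
Ifih1, chr2:62646206-62646505, minus strand: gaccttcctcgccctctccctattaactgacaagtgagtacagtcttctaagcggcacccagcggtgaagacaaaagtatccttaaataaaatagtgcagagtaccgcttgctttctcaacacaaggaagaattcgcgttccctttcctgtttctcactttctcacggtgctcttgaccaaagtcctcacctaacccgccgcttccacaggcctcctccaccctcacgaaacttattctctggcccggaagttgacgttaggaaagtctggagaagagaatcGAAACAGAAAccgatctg
Ddx58, chr4:40239776-40240075, minus strand: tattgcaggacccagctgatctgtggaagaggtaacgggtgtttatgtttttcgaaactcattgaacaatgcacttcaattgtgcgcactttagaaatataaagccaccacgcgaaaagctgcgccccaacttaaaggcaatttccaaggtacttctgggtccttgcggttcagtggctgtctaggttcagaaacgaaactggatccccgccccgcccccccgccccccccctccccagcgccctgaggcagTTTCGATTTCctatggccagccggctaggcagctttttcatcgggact
Ifi203, second annotated start, chr1:173942443-173942742, minus strand: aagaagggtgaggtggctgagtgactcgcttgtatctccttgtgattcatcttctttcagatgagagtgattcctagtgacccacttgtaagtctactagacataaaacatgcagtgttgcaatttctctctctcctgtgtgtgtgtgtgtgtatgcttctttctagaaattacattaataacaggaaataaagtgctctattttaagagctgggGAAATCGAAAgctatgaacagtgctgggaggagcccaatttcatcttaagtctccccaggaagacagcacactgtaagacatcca
Mavs, chr2:131233813-131234112, plus strand: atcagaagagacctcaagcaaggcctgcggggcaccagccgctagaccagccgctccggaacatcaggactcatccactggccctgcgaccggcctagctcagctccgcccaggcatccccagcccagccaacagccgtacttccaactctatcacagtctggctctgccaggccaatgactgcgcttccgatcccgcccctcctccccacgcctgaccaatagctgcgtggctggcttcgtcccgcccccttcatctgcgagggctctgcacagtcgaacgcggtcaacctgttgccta
The match of Ifih1 lies 33 to 42 bases into the transcript and that of Ddx58 3 to 12 bases into it, on the opposite strand, whereas that of Ifi203 lies 35 to 26 bases before the start. Of the 3 genes with the core letters, Ifih1 was called higher and Ddx58 and Ifi203 were not. A match of letters is not a measured binding site, and its absence says only that these letters are not in this window.

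On the DNA side, neither the enzyme nor its receptor passed the test. Mb21d1, which encodes cGAS, had 40.1, 39.4 and 36.5 CPM in the TCL libraries, against 36.4, 35.7 and 33.2 CPM in the WT libraries. The groups did not overlap, but by under 0.1 CPM between TCL library 10 and WT library 3. The log2 fold change was 0.14, with a 95% interval from -0.19 to 0.47 (adjusted p 0.599), and an upper bound of 1.38-fold. Mb21d1 varied least of all 10 genes among TCL libraries, with a coefficient of variation of 5.004%, and second least among WT libraries, at 4.80%.

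Tmem173 encodes STING, the receptor for cGAMP. It had 142, 145 and 177 CPM in the TCL libraries, against 127, 94.1 and 121 CPM in the WT libraries, without overlap. The log2 fold change was 0.44, with a 95% interval from 0.06 to 0.82, and an adjusted p of 0.171 after adjustment over all genes. It was called under none of the 14 alternative settings, where its adjusted p ran from 0.115 to 0.411.

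Ifi203 and Ifi204 belong to the interferon-inducible p200 family of mouse chromosome 1, whose HIN domains bind DNA, and Ifi204 is counted among the mouse relatives of human IFI16. Ifi204 had 202, 202 and 179 CPM in the TCL libraries, against 185, 112 and 112 CPM in the WT libraries. Only WT library 3 reached into the TCL range, and the log2 fold change was 0.51, with a 95% interval from 0.04 to 0.98 (adjusted p 0.193). Without WT library 3 it was 0.79 and still not called (adjusted p 0.0591). Ifi203 had 162, 158 and 209 CPM in the TCL libraries, against 166, 130.2 and 165 CPM in the WT libraries, with overlapping groups (log2 fold change 0.20, adjusted p 0.525). Genes of this family share sequence: 20.02% of the 50-base stretches of Ifi204 transcripts and 12.4% of those of Ifi203 occur in transcripts of another gene. That gene was most often Ifi211 for Ifi204 and Ifi203-ps for Ifi203. Neither had a row under that symbol, and a row under an older symbol was not looked for. The values of Ifi203 and Ifi204 are therefore less certain than those of Ifih1, Mavs, Tmem173 and Zbp1, which share no such stretch. Of their relatives, Ifi205 differed by 1.22 on the log2 scale (adjusted p 0.120) and Mnda by 0.49 (adjusted p 0.367), while Mndal, Pyhin1 and Aim2, which nucleates the DNA-sensing inflammasome, had 0.10, 0.07 and 0.01.

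Zbp1, a sensor of Z-form nucleic acid that engages RIPK3 to start necroptosis or other cell death, had the smallest adjusted p of the 10. It had 235, 264 and 231 CPM in TCL libraries 4, 8 and 10, against 152, 92.7 and 107 CPM in WT libraries 3, 7 and 9. All 3 TCL libraries lay well above the highest WT library. The mean was 243 ± 18.01 CPM in TCL and 117 ± 30.9 CPM in WT samples (SD, n = 3 each), and the log2 fold change was 1.06 (SE 0.20, edgeR adjusted p 0.0182). The gene lies at chr2:173206612-173218923 on the minus strand (GRCm38). In leave-one-out fits its log2 fold change stayed between 0.91 and 1.29, but the call was lost when a WT library was left out, number 7 (adjusted p 0.0554) or 9 (0.0700), and when TCL library 4 was (0.0581). Per kilobase the level of Zbp1 was 6.84 to 7.83 times that of Mb21d1 in the TCL libraries and 3.04 to 4.88 times in the WT libraries. Scaling does not touch this ratio, but its size rests on the annotated exon lengths. It is also 1 of the 9 above, whose pairs were chosen after the values were seen.

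**Figure D3:**
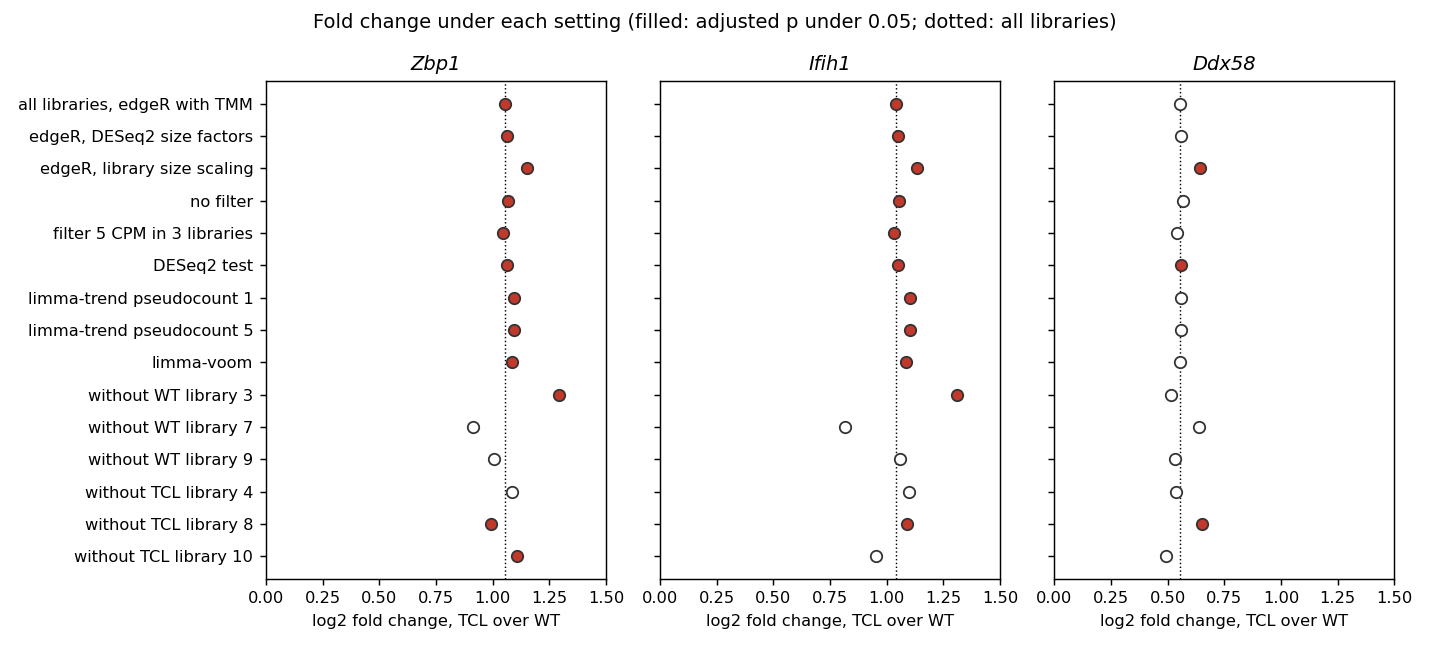
Log2 fold change of Zbp1, Ifih1 and Ddx58 (TCL over WT) with all libraries and under 14 other settings, filled where the adjusted p was under 0.05. Every point lies right of 0, from 0.91 to 1.29 for Zbp1, 0.81 to 1.31 for Ifih1 and 0.49 to 0.65 for Ddx58, while all open circles of Zbp1 and Ifih1 stand in rows that leave out 1 library.

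Levels of different genes can be set side by side only per length, here as CPM per kilobase of annotated exons. That length joins the exons of all annotated transcripts of a gene, 8165 bases for Ifih1, 3345 for Mavs and 4126 for Mb21d1. Which transcripts were present was not tested, so the order of genes below rests on these lengths. Before division by length Ifih1 had 49.7 CPM in WT samples, above Mavs at 35.2 and Mb21d1 at 35.1 CPM. In TCL samples Zbp1 was highest at 69.0 ± 5.10, followed by Tmem173 at 56.4 ± 7.16 and Ifi204 at 54.5 ± 3.74 (CPM per kilobase, SD, n = 3 each). In WT samples Tmem173 was highest at 41.6 ± 6.41, followed by Ifi204 at 38.3 ± 11.8 and Zbp1 at 33.2 ± 8.76. Zbp1 was thus first of 10 in TCL and number 3 in WT samples, but in WT samples its range overlapped those of Ifi204 above it and Dhx58 below it. Next in both groups came Dhx58, Ifi203, Adar and Ddx58, in that order. Of these, neighbours overlapped in range in TCL samples, whereas in WT samples they did not. The adaptor Mavs, at 11.7 ± 1.18 in TCL and 10.5 ± 1.14 in WT samples, and the enzyme gene Mb21d1, at 9.37 ± 0.469 and 8.51 ± 0.408, stood near the bottom in both. Ifih1 was last in WT samples at 6.08 ± 2.07, in a range that overlapped that of Mb21d1, and above Mavs in TCL samples at 12.5 ± 1.52, where the 2 ranges overlapped.

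**Figure D4:**
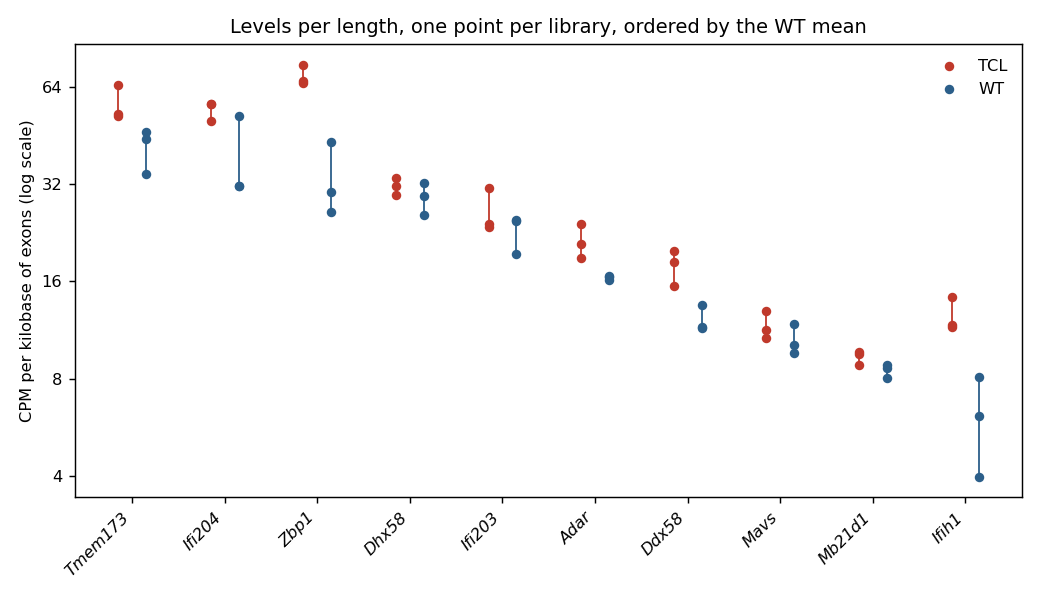
CPM per kilobase of annotated exons on a log axis, one point per library and a line over the range of each group, with genes ordered by the WT mean. Tmem173, Ifi204 and Zbp1 head both groups, and Ifih1, last in WT libraries at 3.99 to 8.12, reaches 11.6 to 14.3 in TCL libraries.

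Within the WT group, library 3 was the highest for 9 of the 10 genes, the exception being Ddx58, and WT library 7 was the lowest for 6, Ifih1, Mavs, Tmem173, Ifi203, Ifi204 and Zbp1. Summed CPM of the interferon-stimulated list described below followed the same order, at 3304 in WT library 3, 2301 in WT library 7 and 2451 in WT library 9. WT library 7 also had the highest summed neutrophil and B cell markers of all 6 libraries, at 56668 and 856 CPM. The part of these cells in its low sensor values was not tested. Among TCL libraries, library 10 was highest for 6 of the genes, Ddx58, Ifih1, Mavs, Tmem173, Ifi203 and Adar.

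Over the 6 libraries, the genes whose pattern was nearest to that of Zbp1 were Lair1, Tom1l1, Il1b, Naip1 and Oasl2, with root mean square differences of centred log2 CPM of 0.105 to 0.133. Lair1 had 223 ± 1.83 CPM in TCL and 103 ± 21.2 CPM in WT samples, and the 2′-5′ oligoadenylate synthetase-like gene Oasl2 had 310.1 ± 12.2 CPM in TCL and 159 ± 34.2 CPM in WT samples. Nearest to Ifih1 were Map4k3, Pigz, Gm12250, LOC100038947 and Irgm2, at 0.0686 to 0.139. Irgm2, an interferon-inducible GTPase gene, had 106 ± 23.3 CPM in TCL and 44.9 ± 16.8 CPM in WT samples. Zbp1 and Ifih1 were each other's nearest of the 10 sensors, at 0.189. These are descriptions over 6 libraries that share a group structure.

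The rest of the pathway was described with 8 lists of cofactors, other sensors, nucleases, STING trafficking, downstream signalling, cell death partners, interferons with their receptors, and interferon-stimulated genes. Without the 10 sensors they held 133 tested genes, of which 9 rose, 1 fell and 123 did not pass. That is 6.77% called higher, against the 2.04% of all tested genes given above, and the median log2 fold change was 0.24. Leaving out WT library 7 brought the genes that rose to 4, WT library 9 or TCL library 4 to 3, and TCL library 8 to 15. The gene that fell was lost in every such fit but that without TCL library 8. The number that rose was 16 with no filter and 23 with DESeq2.

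Upstream of or beside the sensors no member of 3 lists was called by edgeR with the filter on low counts and all libraries. The lists held 18 RIG-I-like receptor cofactors and brakes, 20 other nucleic acid sensors and 15 genes of STING trafficking and cGAMP transport. DESeq2 called 2, 3 and 2 of them, all higher. With no filter edgeR called 2, 1 and 2 of them, and without TCL library 8 it called 1 of each list, all higher. Over all tested genes these 3 settings called 715 of 13010, 465 of 16753 and 469 of 13339 higher. At an unadjusted p under 0.05 edgeR had 4, 3 and 4 of them higher and 0, 1 and 1 lower, beside 11.1% and 11.2% of all tested genes. Trim25, the ubiquitin ligase known for activating RIG-I, had 118 ± 12.997 CPM in TCL and 113 ± 7.92 CPM in WT samples. The RNA-activated kinase gene Eif2ak2 differed by 0.33 on the log2 scale (adjusted p 0.324). Of 13 genes that clear nucleic acid 2 rose and 0 fell. DESeq2 called 2 of the 13 higher and 2 lower, and edgeR with no filter called 2 higher and 1 lower. At an unadjusted p under 0.05 edgeR had 2 higher and 2 lower, beside the same 11.1% and 11.2%. Over all tested genes DESeq2 called 738 of 13010 lower, and edgeR with no filter 507 of 16753. Samhd1, which depletes deoxynucleotides and restricts viruses, had 1613 ± 325 CPM in TCL and 876 ± 87.4 CPM in WT samples (log2 fold change 0.88, SE 0.19, adjusted p 0.0338). Its call was lost in 5 of the 6 fits without a library, with adjusted p up to 0.113. Trex1, which degrades cytosolic DNA, differed by 0.24 on the log2 scale (adjusted p 0.433).

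Of 22 signalling genes downstream of MAVS and STING 1 rose, 1 fell and 20 did not pass. Over all tested genes 2.04% were called higher and 2.67% lower. At an unadjusted p under 0.05 edgeR had 6 of the 22 higher and 1 lower, beside 11.1% and 11.2% of all tested genes. DESeq2 called 2 of the 22 higher and 1 lower. Ikbke, which encodes the kinase IKK-epsilon, had 122, 177 and 141 CPM in the TCL libraries, against 26.7, 52.8 and 39.6 CPM in the WT libraries. Its log2 fold change was 1.88 (SE 0.25, edgeR adjusted p 0.00432), and it was called without any single library. Its partner kinase gene Tbk1 had 67.6 ± 3.33 CPM in TCL and 57.1 ± 8.64 CPM in WT samples (log2 fold change 0.24, adjusted p 0.385). Irf3, the transcription factor both kinases phosphorylate, had a log2 value of -0.17 for TCL over WT (adjusted p 0.511), and Irf7 0.25 (adjusted p 0.514). The adaptor gene Traf5 fell by 0.89 on the log2 scale (adjusted p 0.0318), but its call was lost in 5 of the 6 fits without a library, with adjusted p up to 0.108. Of 9 partners of ZBP1 in cell death 0 passed in edgeR with the filter. At an unadjusted p under 0.05, 3 were higher and 0 lower, beside 11.1% and 11.2% of all tested genes. With DESeq2, and with edgeR and no filter, 1 passed, higher. Ripk3 differed by 0.38 on the log2 scale (adjusted p 0.332). Mlkl, the executioner of necroptosis, had 22.5 ± 5.36 CPM in TCL and 11.6 ± 3.54 CPM in WT samples (adjusted p 0.0784), in groups that did not overlap.

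Few reads were counted for the end products of the pathway. Of 20 genes for type I and related interferons, 18 had no read in any library, and the other two were Ifnb1, with 3 reads over the TCL libraries and 8 over the WT libraries, and Ifnk, with 4 and 0 reads. A count of 0 allows a level of up to 0.112 to 0.184 CPM, depending on the library, from a limit of 3 reads that covers counting error only. That limit is on counted reads: many of the 18 are Ifna genes, a family of near-identical copies, and the treatment of reads that match several copies is not known here. The near-identical globin genes Hba-a1 and Hba-a2 were also at 0 in every library, so for such genes a 0 sets no limit on the mRNA level. Of 7 tested genes of the interferon and receptor list 1 rose and 0 fell, also in every fit without a library, and 5 of the 7 had a log2 fold change above 0. At an unadjusted p under 0.05 edgeR had 3 of the 7 higher and 1 lower, beside 11.1% and 11.2% of all tested genes. The receptor genes Ifnar1 and Ifnar2 had log2 fold changes of -0.12 (adjusted p 0.744) and -0.35 (adjusted p 0.221).

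Of 33 interferon-stimulated genes other than the sensors 5 rose, 0 fell and 28 did not pass, with a median log2 fold change of 0.40. Over all tested genes 2.04% were called higher and 2.67% lower. A log2 fold change above 0 was seen in 25 of the 33, beside 50% of all tested genes. At an unadjusted p under 0.05 edgeR had 12 higher and 1 lower, beside 11.1% and 11.2% of all tested genes. The 5 are Oas3 (0.90), Oas2 (0.86), Dtx3l (1.09), Oasl2 (0.97) and Parp9 (0.77, the only one of these 5 outside the rule for named genes). Oas2 and Oas3 encode synthetases of 2′-5′ oligoadenylates, and Dtx3l and Parp9 encode partners in a ubiquitin ligase complex. Parp9 lost its call in 4 of the 6 fits without a library, Dtx3l in 3, and Oas2, Oas3 and Oasl2 in 2 each, with adjusted p up to 0.105. The list had 1 call when WT library 9 or TCL library 4 was left out, 2 when WT library 7 was, and 10 with DESeq2. Over all tested genes these fits called 0.874%, 0.881%, 0.92% and 5.5% higher, in that order. Ifit1, also named outside that rule, binds RNA with foreign 5′ ends and is one of the most inducible genes of this kind. It differed by 0.09 on the log2 scale (adjusted p 0.886), below the list median of 0.40.

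**Figure D5:**
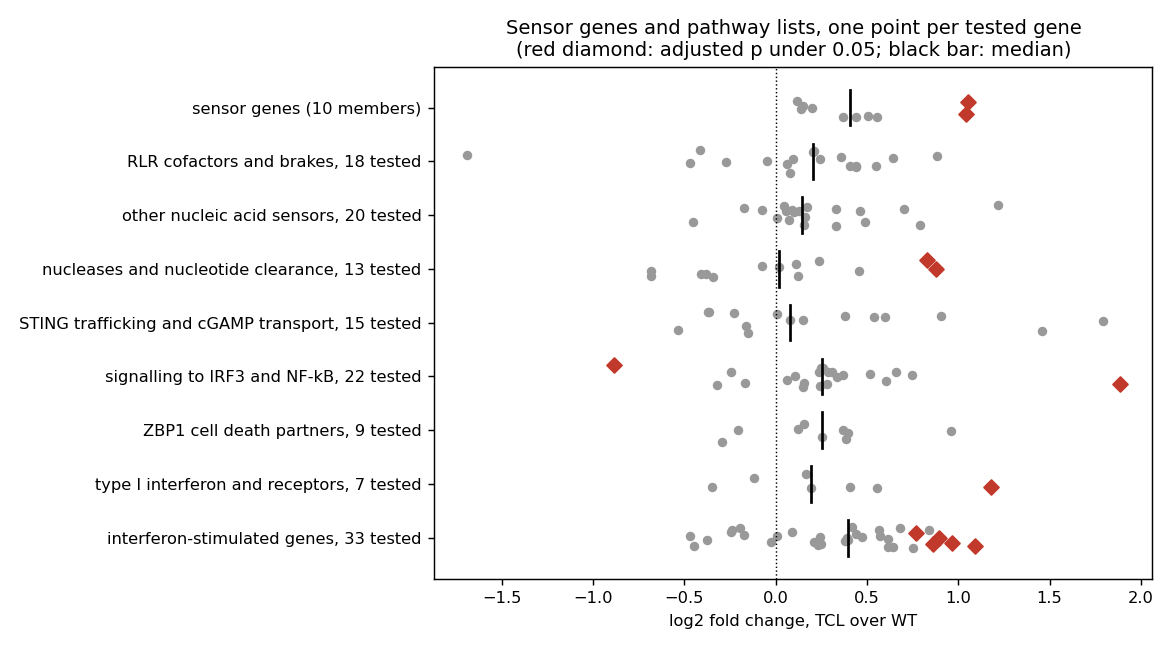
Log2 fold change, TCL over WT, of the 10 sensor genes and of every tested gene of 8 pathway lists, with called genes as red diamonds and the median of each list as a black bar. Ikbke, at 1.88, is the rightmost point, and Traf5, at -0.89, is the only red diamond left of 0.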

How the data were processed

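The authors deposited 1 table with a normalized signal per gene for each of 6 libraries (counts divided by a size factor), their mean, and the authors' own comparison as log2 fold change, p-value and adjusted p-value, per the file headers. Tools named in the submitters' processing notes are STAR 2.4.2a, cutadapt, DESeq2 and HTSeq, with the build mm10 and no role for each. Annotation and strand setting: not given in the sources used here. Columns carry running numbers (WT 3, 7, 9; TCL 4, 8, 10) that match no replicate number of the labels and were used as libraries of their group.

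Dividing each column by its smallest value above 0 gave whole numbers for 100% of its values, within a tolerance of 0.001, and these were taken as reads. They were tested with edgeR 4.0.16 (R 4.3.3): filterByExpr, TMM factors, a quasi-likelihood test and Benjamini-Hochberg adjustment over 13010 genes. Standard errors are the absolute log2 fold change over the square root of F. The scripts were tested on simulated data. No molecular identifiers are named in the labels, and PCR copies are not independent molecules, so limits from read counts cover counting error only. A log-scale test with limma 3.58.1 on log2 of the deposited signal plus 1 called 2 of the 10 members, as edgeR did, and 588 genes against 612. Replicates differed beyond counting noise (chi-square over its degrees of freedom at least 26.6). Exon lengths and positions are those of GENCODE M21 on GRCm38, the assembly behind mm10.

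The members and lists were chosen with earlier results of these data known. Named genes are all members, called genes of the pathway lists (up to 4 a list), a fixed set of sensors, kinases and markers, and the 5 genes nearest in pattern to each called member. Outside this rule Parp9, Ifit1, Ifnar1, Ifnar2, Ifnk, Ifi205, Mnda, Mndal and Pyhin1 were named as well. So were the MHC class II genes, the globin genes, Chrnb2, Ifi211 and Ifi203-ps. Alternatives were other scalings and filters, DESeq2 1.42.0, limma with pseudocounts of 1 and 5, limma-voom and leaving out each library. Results for 2 genes of the pathway lists (both stay in the list counts) and for a second promoter motif that was searched are not reported here. Other files were not used.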

Additional observations from a re-analysis of the deposited data

How the results depend on the processing

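All 10 sensor genes kept a positive log2 fold change under all 14 alternatives. Of the 10, 7 were never called, and Dhx58, for example, ran from 0.05 to 0.21. Zbp1 was called under 11 alternatives and Ifih1 under 10, every loss being a fit without 1 library, and Ddx58 was gained under 3. The number of members called higher, 2 with all libraries, ran from 0 to 3 without a library, and the number called lower was 0 throughout. Of pathway genes 9 were called higher and 1 lower. The first count was 16 with no filter, 23 with DESeq2 and 3 to 15 without a library. The second was 2 with no filter, 3 with DESeq2 and 0 to 1 without a library. Over all tested genes 265 were called higher, 465 with no filter, 715 with DESeq2 and 97 to 469 without a library. Those called lower were 347, 507, 738 and 131 to 426. The causes were not tested. Scaling to library size alone moved the median log2 fold change of all genes to 0.09 and the share of calls that are higher to 53.8%, against 43.3% with TMM. No paired analysis was possible because the columns do not carry the replicate numbers of the labels.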
